A study of Mus musculus with 6 samples.

Results

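Receptor tyrosine kinases are described here in 4T1 cells, a line from a mammary carcinoma of a mouse that is used to model triple-negative disease. The genes were chosen by symbol: Csf1r, Egfr, Erbb2, Erbb3, Met, Fgfr1, Igf1r, Insr, Axl and Epha2. Of these 10 genes, 9 were found among the 12656 genes of the expression table, and Fgfr1 was not analysed here. They were picked with the difference between LP-184 and DMSO libraries already known, so the values below describe these genes and test nothing about them. The treated cells were kept for 48 h with LP-184, a chemotherapeutic agent that damages DNA (3 libraries), and the control cells received the solvent DMSO (3 libraries). Both groups are cultures of the 4T1 line with no other alteration given in the labels, and a single line stands for the tumour type. Nothing in the labels tells if replicates came from separate cultures, so errors cover the scatter of these libraries and may be technical.

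Receptor tyrosine kinases span the cell membrane. In many of them a ligand outside brings receptors together as pairs, and the kinase parts phosphorylate each other on tyrosine. Adaptor proteins that bind the phosphotyrosines pass the signal to the RAS-MAPK and PI3K-AKT pathways. In breast carcinoma cells the ERBB family, MET and AXL are known for driving growth and invasion, whereas CSF1R is best known as the receptor that macrophages need for survival.

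Polyadenylated RNA was sequenced, and each library held 18864368 to 22471753 reads over the genes of the table. Values are CPM (counts of a gene scaled to the total of its library) or log2 CPM. Of 11 epithelial marker genes 10 were measured, and their summed level was 4358 to 4397 CPM in LP-184 libraries and 5621 to 5637 CPM in DMSO libraries. The lower sum rests on the keratin genes Krt7, Krt8 and Krt18, which fell, with Krt7 at 705 ± 3.93 CPM with LP-184 and 1926 ± 12.4 CPM with DMSO (SD, n = 3 each). Another 6 markers rose, among them Epcam and Cdh1, 1 did not pass, and the median log2 fold change of the 10 was 0.26. Once the trend of fold change with gene span was removed, Epcam (0.053), Cldn4 (0.028), Krt19 (-0.014) and Cldn7 (-0.057) no longer passed the threshold. The part of these 10 markers in the receptors' differences was not tested. The label triple-negative was set against the estrogen receptor gene Esr1, which was at 7, 12 and 5 reads in the LP-184 libraries and at 176, 250 and 194 reads in the DMSO libraries. Esr1 transcripts were thus present in DMSO libraries at a low level, and Erbb2, the HER2 gene, had 539 to 897 reads in each of the 6 libraries. Pgr, the other hormone receptor gene looked for, was not among the genes with values. Esr1 spans 394 kb, where the trend of fold change with gene span is -2.56, and its log2 fold change was -4.51. In such bulk libraries, fewer cells of a type and less RNA per cell cannot be told apart.

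All 9 genes passed the filter on low values, a log2 CPM no lower than 0 in 3 or more libraries. Egfr passed only through its 3 DMSO libraries, where it is higher, so its place among the tested genes depends on that group. Likewise Ror1, Vav3, Pros1, Lyz2 and Esr1 would not have passed without their DMSO libraries, nor Spi1 without its LP-184 libraries. Gab2 and Nrg2, described below, have errors at least as wide as those of Ror1 and Pros1, so the same limit may hold for them. By limma across the 11931 genes tested, with p-values adjusted by Benjamini-Hochberg and called under 0.05, 2 of the 9 were higher with LP-184 (Csf1r and Erbb3), against 38.3% of all genes tested. Another 6 were lower (Igf1r, Egfr, Met, Insr, Axl and Erbb2), against 40.0% of all genes, and Epha2 did not pass. Together 8 of 9 passed, against 78.3% of all genes, and for the same 8 the LP-184 and DMSO libraries did not overlap, against 79.1% of all genes. Of these, 2 were higher without overlap, against 38.9% of all genes, and 6 were lower, against 40.2%. One of the 9, Csf1r, was higher by 2-fold or more, against 8.08% of all genes. The median log2 fold change of the 9 genes was -0.86, and that of all genes tested was -0.01. Since this contrast was known when the genes were picked, nothing is read from these counts. The sizes and levels of single receptors follow by family.

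**Figure D1:**
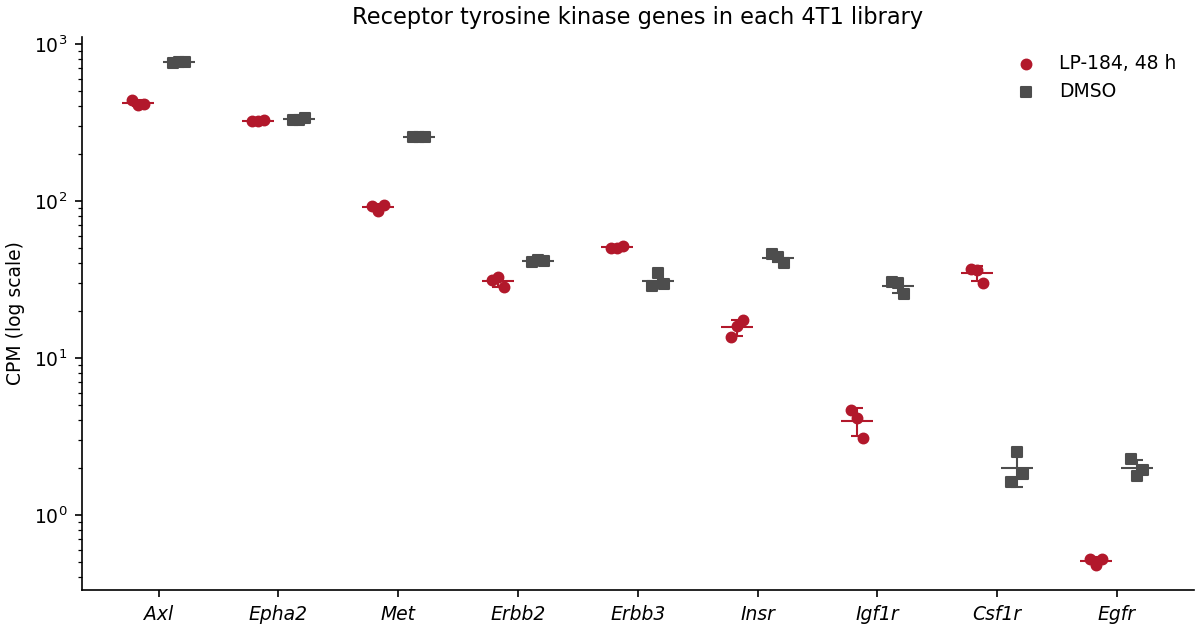
CPM of the 9 receptor genes on a log axis, with 1 point per library (red circles LP-184 for 48 h, grey squares DMSO), a horizontal bar at the mean and whiskers for 1 SD (n = 3 each). Csf1r is at 30.2 to 37.0 CPM with LP-184 and 1.61 to 2.52 CPM with DMSO, while Epha2 lies at 321 to 335 CPM over both groups.

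Csf1r, the receptor of the growth factors CSF1 and IL-34, changed more than any other receptor of the set (chromosome 18, 61100598 to 61132149 in GRCm38, forward strand). Its reads numbered 845, 760 and 576 in the LP-184 libraries and 30, 54 and 34 in the DMSO libraries, in the order of replicates 1 to 3. In CPM these were 37.0, 36.4 and 30.2 with LP-184, against 1.61, 2.52 and 1.82 with DMSO. The groups were far apart, with the lowest LP-184 library at 12.0 times the CPM of the highest DMSO library. The log2 fold change was 4.08 ± 0.14 (SE, n = 3 each), a 16.9-fold difference, which placed Csf1r at rank 16 from the highest among the 11931 genes tested. Leaving out single libraries kept it between 3.94 and 4.25.

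The exons of Csf1r overlap those of Hmgxb3, a gene on the opposite strand, over 873 bases (15.1% of the annotated Csf1r exon sequence). Whether counting used strand is not stated in the labels or headers, so reads of that stretch may have been assigned to either gene or to none. Hmgxb3 had 42.4 ± 2.97 CPM in LP-184 libraries and 29.7 ± 1.39 CPM in DMSO libraries (SD, n = 3 each), with 0.51 ± 0.06 (SE) as log2 fold change. The difference at Hmgxb3 was thus far smaller than that at Csf1r.

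Because CSF1R is a macrophage receptor, 18 macrophage marker genes were set beside it. Of these, 14 were not among the 12656 genes with values, and 4 were measured. Their summed level was 56.7 to 64.0 CPM in LP-184 libraries and 33.7 to 36.1 CPM in DMSO libraries. The 4 genes moved in different directions. Cd68, a lysosomal glycoprotein, averaged 31.3 ± 3.36 CPM with LP-184 and 10.2 ± 0.547 CPM with DMSO (SD, n = 3 each). Spi1, which encodes PU.1, the transcription factor known to drive Csf1r in macrophages, was at 22, 28 and 21 reads in the LP-184 libraries and at 2, 0 and 0 reads in the DMSO libraries. Cd14, a co-receptor for lipopolysaccharide, averaged 26.9 ± 0.990 CPM with LP-184 and 23.1 ± 0.646 CPM with DMSO. Lyz2, the lysozyme gene that macrophages express strongly, had 0 reads in every LP-184 library and 30, 42 and 24 reads in DMSO replicates 1 to 3, at least 33.8-fold lower with LP-184 when the group is set at 3 reads in all (a floor for counting error only). The part of these genes in the Csf1r difference was not tested.

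The ligand genes of CSF1R differed in the other direction from the receptor. Csf1 had 34.0, 37.1 and 38.4 CPM in LP-184 replicates 1 to 3 and 93.8, 96.3 and 88.9 CPM in DMSO replicates 1 to 3. It was lower with LP-184, with a log2 fold change of -1.35 ± 0.05 (SE). Il34 was lower as well, at 9.83 ± 0.789 CPM with LP-184 and 18.4 ± 0.730 CPM with DMSO (SD, n = 3 each). Per kb of exon, the ratio of Csf1r to Csf1 was 0.995, 0.897 and 0.720 in LP-184 replicates 1 to 3 and 0.0157, 0.0239 and 0.0187 in DMSO replicates 1 to 3. The ratio was below 1 in all 6 libraries, and each LP-184 library lay above each DMSO library.

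**Figure D2:**
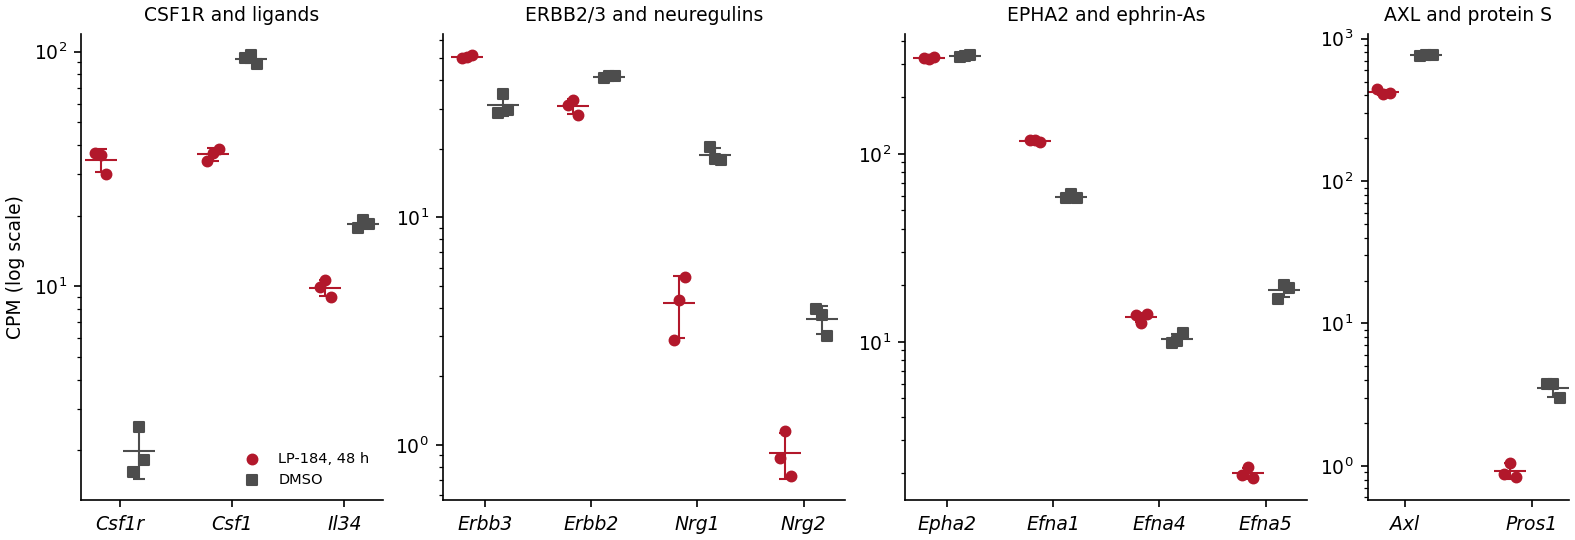
CPM of receptors and their ligand genes on log axes, with 1 point per library (red circles LP-184 for 48 h, grey squares DMSO), a bar at the mean and whiskers for 1 SD (n = 3 each). Csf1r is high where Csf1 and Il34 are lower, Nrg1 and Nrg2 lie lower with LP-184 while Erbb3 lies higher, and Efna1 is higher with LP-184 beside a level Epha2.

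The 3 ERBB genes differed among themselves. Erbb3, a receptor with a nearly inactive kinase that binds neuregulins and signals through a partner such as ERBB2, had 50.2, 50.5 and 51.6 CPM in LP-184 replicates 1 to 3 and 28.8, 34.7 and 29.6 CPM in DMSO replicates 1 to 3. All LP-184 libraries were above all DMSO libraries, and the log2 fold change was 0.71 ± 0.06 (SE). Erbb2, the partner that has no known ligand of its own, had 31.1, 32.6 and 28.2 CPM with LP-184 and 40.9, 41.8 and 41.7 CPM with DMSO, a log2 fold change of -0.44 ± 0.06 (SE). Per kb of exon, the ratio of Erbb3 to Erbb2 was 1.39, 1.34 and 1.58 in LP-184 replicates 1 to 3 and 0.610, 0.719 and 0.616 in DMSO replicates 1 to 3. The order of both genes was thus turned, with Erbb3 above Erbb2 in each LP-184 library and below it in each DMSO library. Egfr, the receptor of EGF and TGF-alpha, was close to the limit of measurement, with 12, 10 and 10 reads in the LP-184 libraries and 42, 38 and 36 reads in the DMSO libraries. Its log2 fold change was -1.77 ± 0.32 (SE), the widest error of the 9 genes.

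The neuregulin genes that feed ERBB3 fell. Nrg1 averaged 4.22 ± 1.28 CPM in LP-184 libraries and 18.7 ± 1.42 CPM in DMSO libraries (SD, n = 3 each; by limma -2.17 ± 0.15 (SE) in log2 fold change, adjusted p = 5.7e-15), and Nrg2 had a log2 fold change of -1.86 ± 0.26. Both are long genes, and once the trend of fold change with gene span over all genes was subtracted Nrg1 was at 0.45 and Nrg2, no longer past the threshold, at -0.24. Hbegf, a ligand of EGFR and the ligand gene with the highest mean log2 CPM, fell less and averaged 86.0 ± 2.07 CPM in LP-184 libraries and 114 ± 4.85 CPM in DMSO libraries (log2 fold change -0.40 ± 0.04, SE).

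Igf1r and Insr, the receptors of insulin-like growth factors and of insulin, were both lower. Igf1r had 4.69, 4.12 and 3.09 CPM in LP-184 replicates 1 to 3 and 30.5, 29.9 and 25.5 CPM in DMSO replicates 1 to 3. That was a log2 fold change of -2.84 ± 0.13 (SE), or 7.14-fold lower, at rank 212 from the lowest of 11931 genes. Insr had 13.6, 16.0 and 17.3 CPM with LP-184 and 45.7, 43.8 and 40.3 CPM with DMSO, a log2 fold change of -1.47 ± 0.08 (SE). Neither gene's groups overlapped. The fall of Igf1r was the larger, so that the ratio of Insr to Igf1r per kb of exon was 3.55, 4.74 and 6.85 in LP-184 replicates 1 to 3 and 1.83, 1.79 and 1.93 in DMSO replicates 1 to 3. Irs2, an adaptor of both receptors, rose to 63.4 ± 1.82 CPM in LP-184 libraries, against 27.4 ± 0.931 CPM in DMSO libraries (SD, n = 3 each; log2 fold change 1.21 ± 0.06, SE), whereas Irs1 had a log2 fold change of -0.61 ± 0.14.

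Met, the receptor of hepatocyte growth factor, had 93.0, 86.8 and 94.7 CPM in LP-184 replicates 1 to 3 and 256, 257 and 257 CPM in DMSO replicates 1 to 3. The log2 fold change was -1.49 ± 0.03 (SE), a 2.80-fold lower level that rested on 5741 reads in LP-184 libraries and 15076 reads in DMSO libraries. Axl, the receptor of GAS6 and a marker of invasive carcinoma cells, had the most reads of the set, with 442, 411 and 412 CPM with LP-184 and 756, 767 and 765 CPM with DMSO. It was lower by less, with a log2 fold change of -0.86 ± 0.02 (SE). Pros1, which encodes protein S, a ligand of the AXL family, fell by 1.81 ± 0.25 on the log2 scale (SE, limma adjusted p = 7.3e-08), to 0.923 ± 0.115 CPM in LP-184 libraries, against 3.49 ± 0.430 CPM in DMSO libraries (SD, n = 3 each).

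Epha2, a receptor of ephrin-A ligands on neighbouring cells, was the one receptor of the 9 that did not pass. It had 324, 321 and 329 CPM in LP-184 replicates 1 to 3 and 327, 329 and 335 CPM in DMSO replicates 1 to 3. The groups overlapped and the log2 fold change was -0.03 ± 0.02 (SE). With each library centred on its median the value was 0.06, with the trend of fold change with gene span removed it was -0.11, and under both settings it passed the threshold. The ephrin genes around it moved in both directions. Efna1 rose to 117 ± 1.85 CPM in LP-184 libraries, against 59.1 ± 1.75 CPM in DMSO libraries (SD, n = 3 each; by limma 0.99 ± 0.04 (SE) in log2 fold change, adjusted p = 9.7e-22). Efna5 fell to 2.00 ± 0.138 CPM in LP-184 libraries, against 18.8 ± 1.59 CPM in DMSO libraries, a log2 fold change of -3.17 ± 0.15 (SE). Efna5 spans 277 kb, and with the trend of fold change with gene span removed its value was -0.93. Per kb of exon the ratio of Efna1 to Epha2 was 0.893 to 0.942 in LP-184 libraries and 0.443 to 0.474 in DMSO libraries.

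Levels of different receptors were compared as CPM per kb of annotated exon. In LP-184 libraries the order ran from Axl (83.8 ± 3.48, SD, n = 3) through Epha2 (69.5 ± 0.804), Met (11.9 ± 0.540), Erbb3 (8.44 ± 0.126), Csf1r (5.98 ± 0.655), Erbb2 (5.89 ± 0.428), Insr (1.14 ± 0.137) and Igf1r (0.236 ± 0.0482) to Egfr (0.0450 ± 0.00234). Csf1r and Erbb2 overlapped between libraries there, and no other neighbours in that order did. In DMSO libraries the order was Axl (152 ± 1.22), Epha2 (70.7 ± 0.979), Met (33.4 ± 0.0868), Erbb2 (7.96 ± 0.0971), Erbb3 (5.16 ± 0.532), Insr (3.15 ± 0.197), Igf1r (1.70 ± 0.161), Csf1r (0.343 ± 0.0823) and Egfr (0.175 ± 0.0217), with no overlap between neighbours. Csf1r thus stood at place 5 with LP-184 and place 8 with DMSO. Axl and Epha2 together made up most of the summed level in both groups. Axl held 44.8% ± 0.928 of the sum in LP-184 libraries and 55.3% ± 0.0201 in DMSO libraries, Epha2 held 37.2% ± 0.850 and 25.8% ± 0.279 in LP-184 and DMSO libraries, and Csf1r held 3.20% ± 0.330 in LP-184 libraries and 0.125% ± 0.0292 in DMSO libraries (SD, n = 3 each). The sum over the 9 genes was 187 ± 3.91 CPM per kb with LP-184 and 274 ± 2.23 CPM per kb with DMSO.

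**Figure D3:**
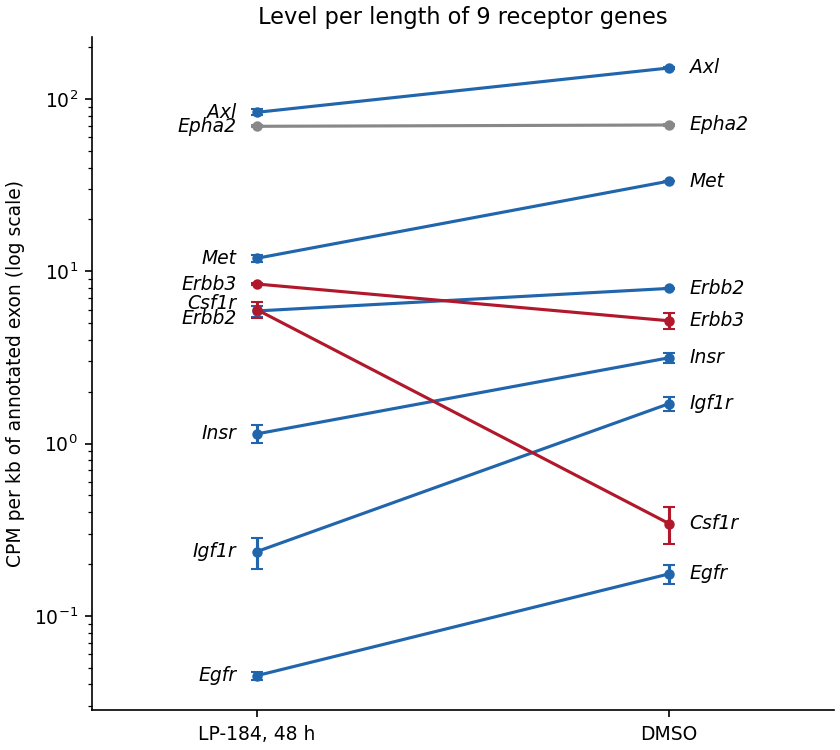
Mean CPM per kb of annotated exon on a log axis for the 9 receptor genes, with LP-184 for 48 h on the left and DMSO on the right and whiskers for 1 SD (n = 3 each). Red lines are higher with LP-184, blue lines lower, and the grey line is Epha2, which did not pass the threshold. The lines of Csf1r and Erbb3 cross those of other receptors.

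The 9 genes differ widely in the stretch of genome they cover. They were chosen with fold changes known, and fold change goes with span here, so the choice was not independent of span. In these libraries fold change falls with gene span over all genes (Spearman rho -0.50 across 11462 genes with 1 annotated span, a description across genes, which are not independent replicates). The 4 receptors over 100 kb were Igf1r (281 kb, chromosome 7), Egfr (166 kb, chromosome 11), Insr (158 kb, chromosome 8) and Met (110 kb, chromosome 6). These 4 were the ones lower by 2-fold or more, against 12.6% of all genes tested, whatever their span. The share among all genes over 100 kb was not computed. The 5 others, of 22.1 to 31.6 kb, were Erbb3, Erbb2, Epha2, Axl and Csf1r, and their log2 fold changes lay between -0.86 and 4.08. All of these values share the same 6 libraries.

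The trend of fold change with span, a loess curve over all genes, was at -2.25 at the span of Igf1r, -1.49 at Egfr, -1.42 at Insr and -0.95 at Met. With this trend removed the log2 fold changes were -0.59 for Igf1r, -0.28 for Egfr, -0.05 for Insr and -0.54 for Met, and Egfr and Insr no longer passed the threshold. The shorter receptors lay where the curve is near 0 (0.04 to 0.19). Without the trend Csf1r was at 4.04, Axl at -0.89, Erbb2 at -0.56 and Erbb3 at 0.52. Insr and Egfr thus lay near the curve, Igf1r and Met lay below it and Csf1r lay far above it. What sets the trend was not tested.

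**Figure D4:**
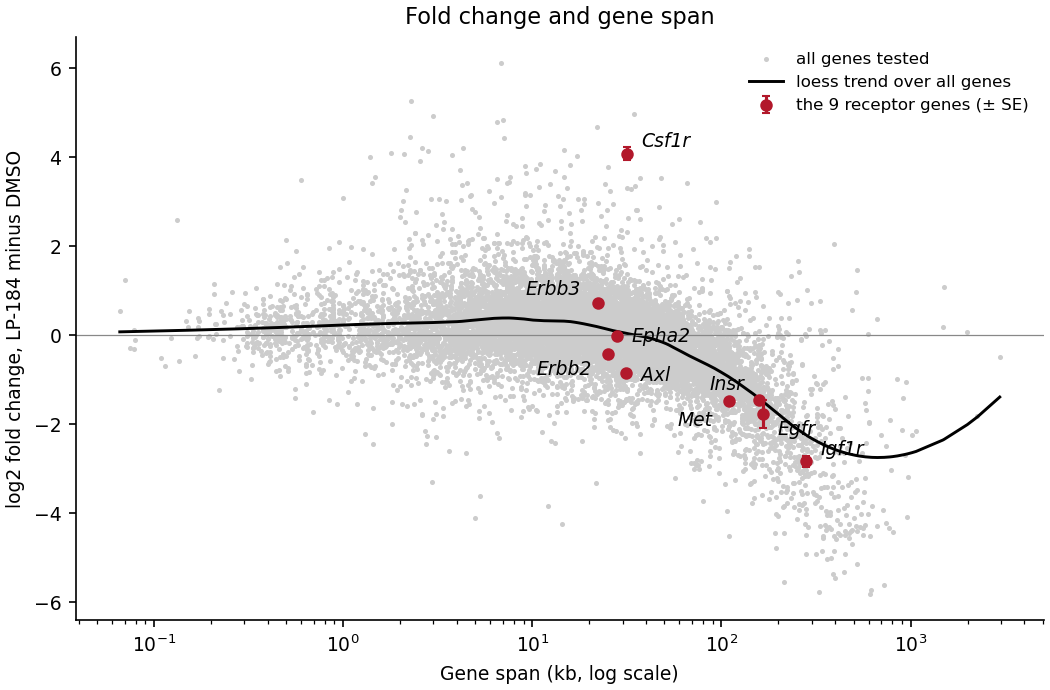
Log2 fold change (LP-184 minus DMSO) against gene span in kb on a log axis for all tested genes with an annotated span (grey points), with the loess trend (black line) and the 9 receptor genes (red, ± SE). Igf1r, Egfr, Insr and Met lie on or below the falling part of the curve, and Csf1r lies 4.04 above it.

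Promoter sequence was read from RefSeq (GRCm38.p6) over the 250 bases before the RefSeq gene start, for 6 of the 9 genes (Epha2, Met, Axl, Igf1r, Egfr and Erbb2). No window was used for Csf1r, Erbb3 and Insr, so neither receptor that rose is among the 6. Receptor promoters of this kind often lack a TATA box and carry GC boxes, which bind SP1-family factors. Windows of 2 receptors that were lower and of the one that did not pass are shown as examples that hold the box. The windows of Met and Axl hold it too and are not printed. A relation of the box to the change of a gene was not tested. Capitals mark the GC box, GGGCGG on either strand, and no GC box overlaps another here. RefSeq and GENCODE starts differ: the window runs 157 bases past the GENCODE start of Met and 14 bases past that of Erbb2, and ends 570 bases before that of Igf1r, 28 before that of Axl and 19 before that of Epha2, while that of Egfr ends at the start.
Igf1r, chr7:67952007-67952256, forward strand: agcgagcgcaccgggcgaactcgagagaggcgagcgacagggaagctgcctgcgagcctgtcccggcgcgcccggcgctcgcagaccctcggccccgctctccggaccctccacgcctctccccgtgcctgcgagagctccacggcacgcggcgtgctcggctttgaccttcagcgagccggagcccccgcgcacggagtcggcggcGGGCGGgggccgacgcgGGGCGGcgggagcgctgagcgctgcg
Egfr, chr11:16751953-16752202, forward strand: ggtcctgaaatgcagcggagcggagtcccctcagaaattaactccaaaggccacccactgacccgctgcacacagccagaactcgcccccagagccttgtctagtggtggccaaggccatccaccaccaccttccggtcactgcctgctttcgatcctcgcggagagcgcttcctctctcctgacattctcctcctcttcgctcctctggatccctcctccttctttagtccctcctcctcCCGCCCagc
Epha2, chr4:141300971-141301220, forward strand: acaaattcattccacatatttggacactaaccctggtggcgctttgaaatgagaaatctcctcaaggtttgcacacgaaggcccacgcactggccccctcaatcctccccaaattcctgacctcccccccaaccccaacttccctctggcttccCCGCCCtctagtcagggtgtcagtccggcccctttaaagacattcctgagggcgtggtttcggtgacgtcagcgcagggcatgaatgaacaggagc
A GC box was present in 5 of the 6 windows, with 3 in Met, 2 in Igf1r and 1 each in Epha2, Axl and Egfr, while Erbb2 had none. Of all 32851 RefSeq windows of this length, 32.7% held at least 1. The GC content was 77.6% for Igf1r, 60.8% for Egfr and 55.6% for Epha2, against a median of 52.4% over all windows. The AP-1 motif TGANTCA was found in the Met window only, and in 6.75% of all windows. These are matches of letters and show no binding.

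Among the 48 other receptor tyrosine kinase genes, 22 were tested, and the other 26 were not among the 12656 genes with values. Of the 22, 8 rose, 11 fell and 3 did not pass, against 38.3% higher and 40.0% lower over all genes, and the median of their log2 fold changes was -0.16. The largest rise was that of Ephb3, a receptor of ephrin-B ligands, which averaged 20.0 ± 0.517 CPM in LP-184 libraries and 5.47 ± 0.282 CPM in DMSO libraries (SD, n = 3 each; by limma 1.85 ± 0.11 (SE) in log2 fold change, adjusted p = 9.6e-17). Ror1, a receptor of WNT5A, fell by 2.48 ± 0.25 on the log2 scale (SE). With 22, 14 and 13 reads in the LP-184 libraries, Ror1 would not have passed the filter on low values without its DMSO libraries. Ephb2, another receptor of ephrin-B ligands, fell by 2.30 ± 0.12, and Flt1, a receptor of VEGF, fell by 2.21 ± 0.14. The highest mean log2 CPM values belonged to Ryk, a co-receptor for WNT proteins, with a log2 fold change of -0.38 ± 0.04, and Ephb4 with -0.29 ± 0.04. All 6 of these receptors over 100 kb fell (Flt1, Fgfr2, Ror1, Epha4, Ephb2 and Ddr2), whereas of the 16 at 100 kb or less 8 rose, 5 fell and 3 did not pass. The shares of all genes that rose or fell in these 2 span classes were not computed. The trend of fold change with gene span over all genes is at -2.47 to -1.24 at the spans of the 6. With the length trend removed the number lower was 6, Ror1 was at -0.01, Ephb2 at -0.61, Flt1 at -0.73 and Ryk at 0.16. The 38.3% and 40.0% belong to the fit with the trend left in, so nothing is read from that number. Over all 31 receptors tested, Csf1r had the highest log2 fold change and Igf1r the lowest.

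**Figure D5:**
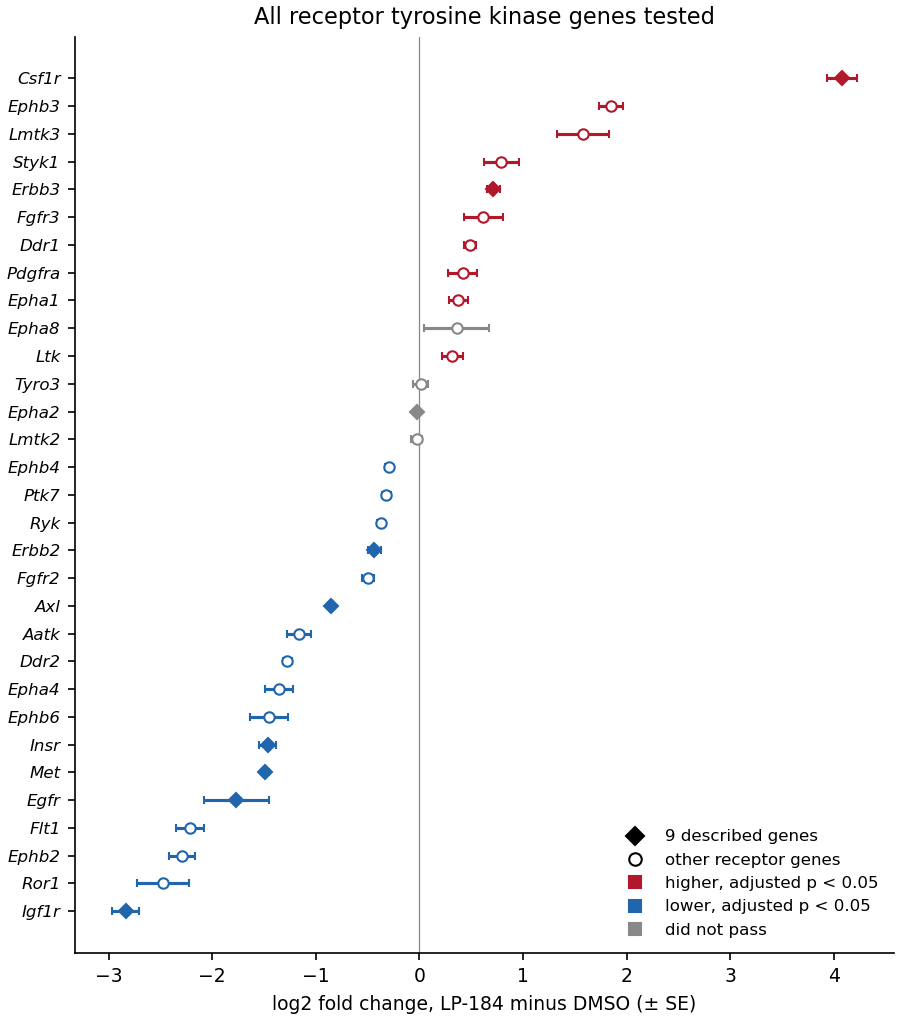
Log2 fold change (LP-184 minus DMSO, ± SE, n = 3 each) of all 31 receptor tyrosine kinase genes tested, ordered by value, with filled diamonds for the 9 described genes and open circles for the others. Colours give the limma call (red higher, blue lower, grey did not pass), and Csf1r at 4.08 stands apart from Ephb3 at 1.85.

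Ligand genes of the 10 chosen receptors, with those of Fgfr1 included, numbered 32, of which 14 were tested. Of these, 3 rose, 8 fell and 3 did not pass, against 38.3% higher and 40.0% lower over all genes, and their median log2 fold change was -0.65. Adaptors and effectors pass the signal on inside the cell. Of 26 adaptors and proximal effectors tested, 5 rose, 19 fell and 2 did not pass, against 38.3% higher and 40.0% lower over all genes, with -0.61 as the median log2 fold change and a median span of 67.7 kb (21.8 kb over all genes). Vav3, a signalling protein that binds activated receptors, fell by 4.56 ± 0.17 on the log2 scale (SE), to 0.891 ± 0.0612 CPM in LP-184 libraries, against 23.3 ± 0.315 CPM in DMSO libraries (SD, n = 3 each). At that level Vav3 would not have passed the filter on low values without its DMSO libraries. Gab2, a docking protein, fell by 2.96 ± 0.29, Vav2, a relative of Vav3, fell by 1.65 ± 0.12 and Rasa1, a GTPase-activating protein of RAS, fell by 1.62 ± 0.05. The highest mean log2 CPM values belonged to the adaptor Crk (-0.46 ± 0.02) and to Ptpn11, the phosphatase SHP2 (0.12 ± 0.03). With the length trend removed 8 were higher and 12 lower. The 38.3% and 40.0% belong to the fit with the trend left in, so nothing is read from these 2 counts. Vav3 was then at -2.10, Gab2 at -0.99, Rasa1 at -1.07 and Vav2, no longer past the threshold, at -0.17.

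Of 26 genes that restrain receptor signalling, all of them tested, 3 rose, 18 fell and 5 did not pass, against 38.3% higher and 40.0% lower over all genes, and the median of their log2 fold changes was -0.57. The largest falls were those of Ptprk, a receptor-type tyrosine phosphatase (-3.86 ± 0.07, SE), Nf1, a GTPase-activating protein of RAS (-2.06 ± 0.13), Lrig1, which promotes the degradation of ERBB receptors (-1.91 ± 0.04), and Ptprj, another receptor-type phosphatase (-1.69 ± 0.14). Lrig1 averaged 37.3 ± 0.657 CPM in LP-184 libraries and 141 ± 6.52 CPM in DMSO libraries (SD, n = 3 each). The highest mean log2 CPM values belonged to Errfi1, an inhibitor of EGFR family kinases (-0.56 ± 0.03), and to Dusp6, a phosphatase of ERK (-0.08 ± 0.03, limma adjusted p = 0.033), whose call was lost in 7 alternatives, such as leaving out replicate 2 or 3 of either group (adjusted p 5.9e-10 to 0.741 over the alternatives). With the length trend removed 7 genes of this list were higher. The 38.3% and 40.0% belong to the fit with the trend left in, so nothing is read from that count. Ptprk was then at -1.15, Lrig1 at -1.12, Ptprj at -0.33 and Nf1, no longer past the threshold, at -0.0028.

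Genes with the profile most like that of a receptor were found by the Euclidean distance between log2 CPM values over the 6 libraries, each gene centred on its mean. Nearest to Csf1r were Oasl1 (distance 0.30, log2 fold change 4.15), Krt16 (0.41, 4.13) and Isg15 (0.46, 4.01). Nearest to Erbb3 were Slc6a8 (0.06, 0.69), Crkl (0.10, 0.68) and Tmem231 (0.11, 0.75), and nearest to Egfr were Znrf3 (0.13, -1.77), Herc3 (0.18, -1.78) and Sik3 (0.18, -1.73). With 3 libraries a group these distances mainly rank genes by the size of their fold change.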

How the data were processed

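The data are 6 libraries of polyadenylated RNA from 4T1 cells, 3 given LP-184 and 3 given DMSO. The human cell line and the single-cell data of the series were not analysed here. The authors deposited log2 CPM values (reads scaled to library size) per gene symbol, and a table of their own log2 fold changes with p-values; the labels do not name its test. Per the submitters' processing notes, fastp, STAR 2.7, featureCounts, Subread 2.0 and edgeR were used, with no roles. Neither labels nor headers name the gene filter, annotation or strand setting. A column headed control was read as the DMSO library with its number.

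The lowest deposited log2 value, that of 0 reads, is -3.34, so a prior count was added. Without the prior, 100% of values gave whole reads within 0.001, and from these come reads and CPM per gene. Levels are relative to the scaled size of each library, which was 98.4% to 101.6% of its reads over the genes of the table. Genes no lower than log2 CPM 0 in 3 or more libraries were compared on the log2 CPM scale with limma 3.58.1 in R 4.3.3 (mean-variance trend, two-sided, Benjamini-Hochberg over 11931 genes). The prior understates the change of low genes. The fit was tested on simulated counts in which few genes changed, unlike these data, so that run does not show how the fit performs here. Positions, spans and exon lengths come from GENCODE M21 on GRCm38, the assembly of the mm10 build in the processing notes, with 12134 of 12656 symbols matched to 1 gene. Summaries used Python 3.11.15.

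The receptors, lists, named genes and alternatives were chosen with earlier results of these data known. In each list the 4 called genes with the largest change at log2 CPM of 1 or more in the higher group and the 2 with the highest mean log2 CPM are named, and the 3 nearest profiles are given for Csf1r, Erbb3 and Egfr. Csf1, Il34, Irs1, Irs2, Hmgxb3, Lyz2, the other markers and the choice of those 3 receptors fall outside this rule and were chosen after values were seen. Alternatives were median centring, quantile normalization, other pseudocounts and filters, other variance models, single libraries left out, a block for the replicate number, voom (limma) fitted to recovered reads, a threshold of 0.01 and removal of the length trend (loess, span parameter 0.3, 11462 genes).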

Additional observations from a re-analysis of the deposited data

How the results depend on the processing

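The number of genes called was 9341, and it lay between 8466 and 9567 over the alternatives, with 9048 to 9125 when single libraries were left out. The receptors called numbered 2 higher and 6 lower, except that median centring gave 3 higher, and that the stricter filter, which removes Egfr, and the subtraction of the trend with gene span each gave 5 lower. The log2 fold changes of single genes kept direction and call in 1009 of 1038 values (58 genes). Subtracting the trend with gene span changed most: other receptors lower numbered 6, adaptors 8 higher and 12 lower, and negative regulators 7 higher, a count that was 5 with quantile normalization. Shares over all genes under these settings are not given, so nothing is read from these counts. Under the same subtraction direction turned for Ryk (0.16), Nrg1 (0.45), Sik3 (0.13), Cd14 (-0.044), Krt19 (-0.014), Cldn7 (-0.057) and Esrp1 (0.18). Median centring, which raised every log2 fold change by 0.09, turned Epha2 (0.062), Dusp6 (0.012) and Esrp1 (0.0074). The cause of these changes was not tested.

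Same-numbered libraries of the 2 groups did not deviate together (r of -0.02 to -0.01 between their deviations from the group means), and they were not treated as pairs. Whether they were handled as pairs is not stated in the labels, and so few libraries cannot settle it. With the replicate number as a block, 9291 genes were called.

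With the longest transcript as the length, all 9 receptors kept their place in both groups. Levels in CPM per kb were then, in LP-184 libraries, 98.9 for Axl, 83.0 for Epha2, 13.4 for Met, 7.35 for Csf1r, 1.67 for Insr, 0.348 for Igf1r and 0.0499 for Egfr, and in DMSO libraries 179 for Axl, 84.5 for Epha2, 37.7 for Met, 8.27 for Erbb2, 4.63 for Insr and 2.51 for Igf1r. Egfr, with 32 reads in LP-184 libraries and 116 in DMSO libraries, is the receptor most limited by depth.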

Other observations

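In the authors' deposited table the log2 fold changes of the 9 receptors differed from those computed here by at most 0.17, for Egfr (-1.94 in the authors' deposited table). The authors' deposited table gives Csf1r a log2 fold change of 4.11, and 8 of the 9 receptors have a false discovery rate under 0.05 there. The share of all genes under that rate in their table was not computed. In the limma fit 78.3% of all genes passed, so nothing is read from this count.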
